A study of Mus musculus with 2 samples.

Results

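Homeobox transcription factors that mark position along the body, with their partners and the X-linked homeobox gene Rhox5, were followed in whole lungs carrying Lewis lung carcinoma (LLC) cells. LLC is a carcinoma line from C57BL mouse lung. The members were the probe sets annotated to 1 gene whose symbol is Hoxa, Hoxb, Hoxc, Hoxd, Rhox, Meis, Pbx, Dlx, Pitx, Irx or Msx with a number, or that of Six4 and its numbered relatives, which gave 99 of 34945 single-gene probe sets and 65 of 18194 genes. The families were chosen by symbol, with the high ratios of Rhox5 and Hoxa9 on these same arrays already known, so every count below is a description.

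The study had 2 groups of C57BL/6 mice, aged 6 to 8 weeks, in which 500000 LLC cells in 200 µL were injected into a tail vein and the lungs were taken on day 19. One group received vector-transfected LLC cells and the other LLC cells overexpressing TDAG8, a proton-sensing receptor that raises cyclic AMP and is the product of Gpr65. The host mice of both groups carried tumour cells, and no lung without them was analysed here. Each group's 10 lung RNAs were combined into a pool that was read on 1 Affymetrix array, so there were 2 arrays, no spread between mice, no test and no replicate check on any value. The sources used here do not give the promoter of the TDAG8 construct or the number of transfected clones.

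Hox genes lie in 4 clusters, HoxA to HoxD, and are numbered in the order in which they act from head to tail, so that genes of low number are called anterior and those of high number posterior. Hox proteins bind DNA together with Pbx and Meis proteins, which are homeobox factors of the TALE class. Anterior and central Hox genes such as Hoxa5 and Hoxb5 take part in lung development and remain active in lung mesenchyme, whereas posterior genes are known from the limb, the lower trunk, the urogenital tract and blood progenitors. Rhox5 belongs to an X-linked cluster of reproductive homeobox genes and is known from testis, placenta and tumour cell lines.

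The values were intensities, the brightness of each probe set on a linear scale, which the authors had scaled to a trimmed mean of 100 on each array. A value under its array's median, 26.3 for vector control lungs and 24.3 for TDAG8 lungs, was treated as background, and ratios against it are bounds, written as at least N-fold. Log2 ratios are TDAG8 over vector control after centring by -0.06, and a gene was counted as higher or lower from 2-fold. Each gene was represented by the probe set with the highest mean log2 intensity. The lung labels matched the data, since the surfactant gene Sftpc read 7475.5 and 6605, the alveolar type 1 gene Ager 6541.4 and 4396.6, and the club cell gene Scgb1a1 10111.5 and 8731.4. Gpr65 read 32.3 and 73.9, 2.38-fold higher, but whether its probe set reads the transfected sequence is not known. Between probe sets of the same gene the log2 ratio had a pooled SD of 0.27 over 4775 genes, which is a spread within these 2 arrays and not between animals.

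The promoter windows of the genes on which the account turns are shown first. The RefSeq table of build GRCm38.p6 gave 43 windows for 40 of the 65 genes, each from 250 bases before to 50 bases after an annotated start. Rhox5 and the HoxD neighbours Hoxd8, Hoxd9 and Hoxd10 are shown with Hoxa9 because they were higher in the TDAG8 lungs, and Hoxa5 is shown as the lung Hox gene on the other side. Capitals mark matches, on either strand, to the CCAAT box (CCAAT), the core of the cAMP response element (TGACG, which the whole element TGACGTCA contains), the E-box of Myc and Max (CACGTG), the TATA box (TATAAA), the AP-1 site (TGANTCA) and the composite site of Hox and Pbx (TGATTNAT).

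Rhox5 (chrX:37754358-37754657, + strand): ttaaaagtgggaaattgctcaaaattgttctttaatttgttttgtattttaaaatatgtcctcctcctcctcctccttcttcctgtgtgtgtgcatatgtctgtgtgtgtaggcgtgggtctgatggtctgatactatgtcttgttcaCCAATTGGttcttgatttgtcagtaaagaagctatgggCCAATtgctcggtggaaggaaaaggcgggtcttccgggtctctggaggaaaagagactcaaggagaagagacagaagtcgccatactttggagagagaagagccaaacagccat

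Hoxd8 (chr2:74704365-74704664, + strand): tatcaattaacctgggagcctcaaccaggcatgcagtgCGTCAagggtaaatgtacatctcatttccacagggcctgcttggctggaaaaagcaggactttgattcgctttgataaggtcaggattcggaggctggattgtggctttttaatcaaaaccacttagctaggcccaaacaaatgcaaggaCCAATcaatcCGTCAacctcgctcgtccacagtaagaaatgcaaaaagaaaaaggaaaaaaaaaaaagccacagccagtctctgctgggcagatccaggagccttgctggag

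Hoxd9 (chr2:74697513-74697812, + strand): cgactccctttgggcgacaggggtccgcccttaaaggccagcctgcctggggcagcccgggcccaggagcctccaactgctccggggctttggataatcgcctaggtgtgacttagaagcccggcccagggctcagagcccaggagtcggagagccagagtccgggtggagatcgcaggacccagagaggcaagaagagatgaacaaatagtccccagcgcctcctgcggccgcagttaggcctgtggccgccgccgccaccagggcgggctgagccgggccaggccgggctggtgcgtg

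Hoxd10 (chr2:74691641-74691940, + strand): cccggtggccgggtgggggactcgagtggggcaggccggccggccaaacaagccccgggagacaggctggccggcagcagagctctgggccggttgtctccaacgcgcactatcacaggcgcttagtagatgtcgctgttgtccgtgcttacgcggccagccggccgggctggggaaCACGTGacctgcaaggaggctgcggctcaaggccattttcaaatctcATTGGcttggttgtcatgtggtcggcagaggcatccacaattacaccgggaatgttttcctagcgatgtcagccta

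Hoxa9 (chr6:52227321-52227620, - strand): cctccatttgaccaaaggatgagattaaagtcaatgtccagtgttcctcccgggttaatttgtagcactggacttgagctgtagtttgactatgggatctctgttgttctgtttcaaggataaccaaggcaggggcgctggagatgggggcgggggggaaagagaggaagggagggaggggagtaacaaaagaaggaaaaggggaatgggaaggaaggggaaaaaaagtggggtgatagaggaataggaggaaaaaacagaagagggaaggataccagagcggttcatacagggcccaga

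Hoxa5 (chr6:52204538-52204837, - strand): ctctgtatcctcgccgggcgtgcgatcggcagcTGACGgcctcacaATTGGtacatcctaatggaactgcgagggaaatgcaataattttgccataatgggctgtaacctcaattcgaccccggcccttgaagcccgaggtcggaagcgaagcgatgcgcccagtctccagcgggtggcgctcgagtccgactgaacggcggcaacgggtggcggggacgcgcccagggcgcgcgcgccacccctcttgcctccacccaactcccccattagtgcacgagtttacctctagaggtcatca

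In these windows CCAAT matched at 3 places in Rhox5, of which the first, at base 149 of the window, overlapped the second, at base 152 on the opposite strand, and it matched once each in Hoxd8, Hoxd10 and Hoxa5. It was present in 25 of the 43 member windows (58.1%) and in 37.4% of all 32841 windows. TGACG matched 2 places in Hoxd8 and 1 in Hoxa5, and was present in 12 of the 43 member windows (27.9%) and in 20.8% of all windows. CACGTG matched once in Hoxd10, and was present in 5 member windows (11.6%) and in 7.15% of all windows. The whole element TGACGTCA was in 0 of 43 member windows and in 1.79% of all windows. TATAAA (9.3% of member and 13.6% of all windows), TGANTCA (4.65% and 7.81%) and TGATTNAT (4.65% and 3.22%) had no match in the 6 windows shown, and Hoxd9 and Hoxa9 had none of the 7 patterns. The number of CpG dinucleotides differed among them, with 29 in Hoxa5, 22 in Hoxd10, 20 in Hoxd9, 6 in Hoxd8, 5 in Rhox5 and 4 in Hoxa9. The median was 20 over the member windows and 7 over all windows.

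Most of the 65 genes lay in the background. On both arrays 38 of them, 58.5%, were below the median in the probe set that stood for them, against 34.3% of all 18194 genes, and the same held for 59 of 99 probe sets, against 40.1% of all single-gene probe sets. The remaining 27 genes were measured on at least 1 array, 19 on both, 5 in the TDAG8 lungs only and 3 in the control lungs only. Among the 27 genes 7 were at least 2-fold higher in the TDAG8 lungs, where 5.41% of all 11949 measured genes were, and 0 were at least 2-fold lower, where 1.19% of all measured genes were. By probe set the counts were 9 higher and 0 lower of 40 measured, beside 4.87% and 1.13% of all measured probe sets. The 7 genes were Rhox5, Hoxa9, Hoxa10, Hoxd8, Hoxd9, Hoxd10 and Dlx2. Of these, Hoxa9, Hoxa10, Hoxd10 and Dlx2 had a control value in the background and counted as measured only through the TDAG8 array. That largely fixed the sign of their ratios, so the count is not an even comparison with the share over all genes. Of the 27 measured genes 18 had a ratio below 0, where 50.1% of all measured genes did. For 3 of the 18, Hoxa4, Hoxb6 and Six5, the TDAG8 value was in the background, which largely fixed the sign. Of those 18, Hoxb4 lay above 0 in 3 of the alternative settings and Pbx3 in 1.

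**Figure D1:**
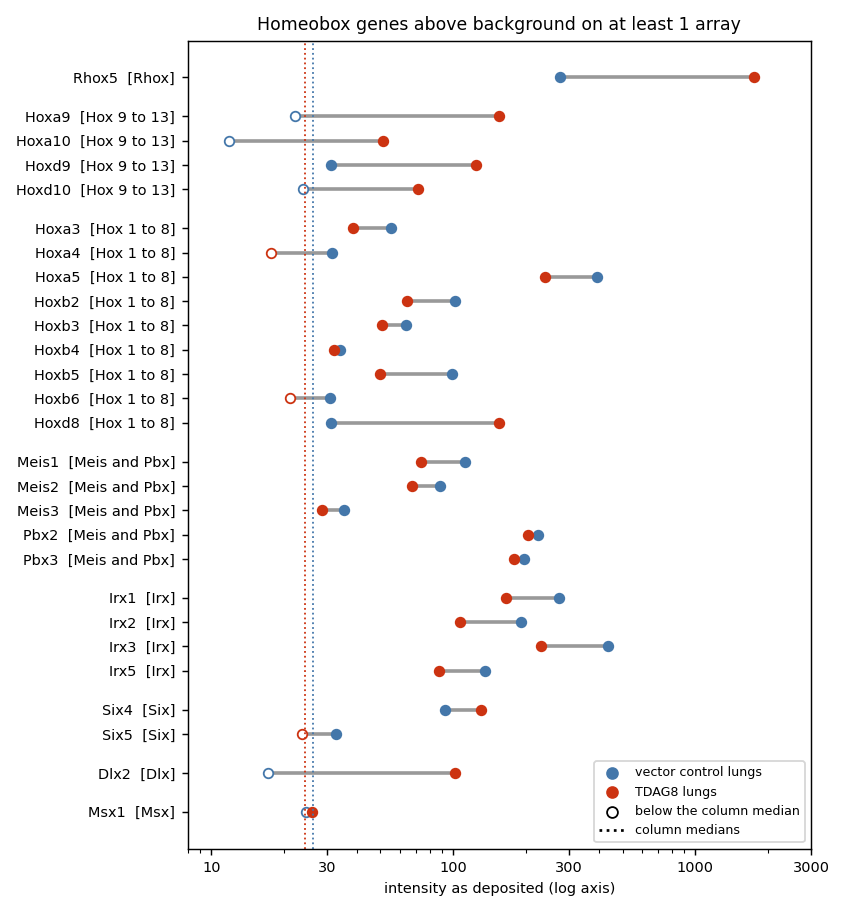
Deposited intensity on a log axis of the 27 homeobox genes above background on at least 1 array, in the vector control lungs (blue) and the TDAG8 lungs (red), 1 array each, with open points below the array's median and dotted lines at the medians of 26.3 and 24.3. Rhox5, 4 posterior Hox genes, Hoxd8 and Dlx2 lie far to the right in the TDAG8 lungs, while the lung Hox, Meis and Irx genes lie to the left of their control values.

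Rhox5 had an intensity of 275.5 in the control lungs and 1745.8 in the TDAG8 lungs. It was thus well above the median on both arrays, and its log2 ratio of 2.72, or 6.60-fold, ranged only from 2.62 to 2.74 over all settings tried. It was read by 1 probe set. The other members of its cluster on chromosome X with a single-gene probe set, Rhox6, Rhox9 and Rhox13, were below the median on both arrays. The protein-coding genes on either side of the Rhox cluster that were measured, Rnf113a1, Ndufa1 and Zbtb33, lay between -0.26 and 0.20 on the log2 scale.

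Posterior Hox genes, those of paralogue groups 9 to 13, were higher where they were measured under the reported setting. Of 14 such genes with a single-gene probe set 4 were measured, and all 4 passed 2-fold upward. The median of their log2 ratios, 3 of them bounds, was 1.77 beside -0.00 over all measured genes. Raising the floor to the 65th percentile lowered it to 1.04, with 2 of 3 measured genes past 2-fold, and it came to 1.25 with the offset and 1.26 over groups 10 to 13. For 3 of the 4 the control value was in the background, which largely fixed the sign of the ratio. Over all families 66 member probe sets were below the median in the control, and 5 of these were at least 2-fold higher, beside 1.15% of all single-gene probe sets so placed. Hoxd9, active in limb and trunk mesoderm, was the 1 gene above the median on both arrays. It went from 31.3 to 124.6, a log2 ratio of 2.05 or 4.15-fold, with a control value close to the median. Hoxd10, its neighbour toward the posterior end, went from 24 to 71.2, at least 2.82-fold higher. Hoxa9, which drives self-renewal of blood progenitors together with Meis1, went from 22.1 to 154 and was at least 6.10-fold higher. Hoxa10, the next gene of that cluster and a factor of uterus and blood development, went from 11.8 to 51.1, at least 2.02-fold. All 4 values in the TDAG8 lungs were therefore above that array's median, and 3 of the 4 control values were below theirs. That of Hoxa10 was the lowest of the 4, at percentile 62.4 of the TDAG8 array. A second Hoxa10 probe set was in the background on both arrays, at 1.5 and 0.5. A second Hoxa9 probe set went only from 14.2 to 29.8, a log2 bound of 0.24.

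The other 10 posterior genes, Hoxa11, Hoxa13, Hoxb9, Hoxb13, Hoxc9, Hoxc10, Hoxc13, Hoxd11, Hoxd12 and Hoxd13, were below the median on both arrays. Within clusters A and D the measured genes were thus the neighbours of groups 9 and 10, and the genes of groups 11 to 13 were not detected above background. No posterior gene of clusters B or C was measured. With the floor lowered to the 30th percentile 6 posterior genes were measured, and 4 of these passed 2-fold. The HoxC genes with a single-gene probe set were all in the background, with 11 probe sets of 7 genes between 0.2 and 14.1.

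**Figure D2:**
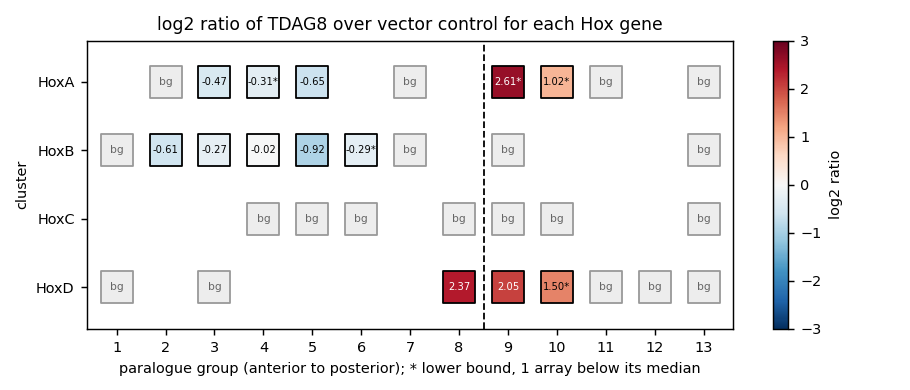
Log2 ratio of TDAG8 over vector control for the 33 Hox genes with a single-gene probe set, by cluster (rows) and paralogue group (columns). Grey squares marked bg are below the median on both arrays, an asterisk marks a bound, and the dashed line separates groups 1 to 8 from 9 to 13. The positive values sit at HoxA 9 and 10 and HoxD 8 to 10, and the measured HoxA and HoxB genes of groups 2 to 6 lie below 0.

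Hoxd8 followed its HoxD neighbours although it belongs to the central groups. Its brighter probe set went from 31.2 to 154.7, a log2 ratio of 2.37 or 5.16-fold, and a second one from 20 to 109.8, at least 4.35-fold. The contiguous genes Hoxd8, Hoxd9 and Hoxd10 were therefore all higher, at 2.37, 2.05 and at least 1.50 on the log2 scale, while Hoxd1 and Hoxd3, toward the anterior end, were in the background. The nearest measured protein-coding genes outside the cluster, Lnpk on the posterior side and Mtx2 on the anterior side, were at 0.81 and 0.73 and so below 2-fold. For the HoxA cluster the nearest measured genes outside were Skap2 at 0.14 and Hibadh at 0.17. Of 33 measured neighbours of the Hox, Rhox and Irx clusters 0 were 2-fold different, and their log2 ratios ran from -0.87 to 0.81.

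Among the anterior and central Hox genes none was 2-fold lower. Of 19 genes in groups 1 to 8 with a single-gene probe set, 9 were measured. Hoxd8 was 1 of them and the other 8 had ratios below 0. The median over the 9 was -0.31, or -0.47 over the 7 genes above the median on both arrays. The groups 1 to 4 alone had the same median of -0.31 over 5 measured genes, since both medians fell on the value of Hoxa4, which is a bound. After quantile normalization or loess centring Hoxb4 turned to above 0, so that 7 of 9 genes were below 0. Without probe sets that have a letter before the _at ending of their ID, 6 of 8 were. With the floor lowered to the 30th percentile 13 of these genes were measured, of which 9 were below 0. In these pooled whole-lung RNAs fewer cells of a type and less RNA per cell cannot be told apart.

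Hoxa5, needed in the mouse for normal development of the trachea and lung, went from 391.5 to 239.6, a log2 ratio of -0.65 or 1.57-fold lower. A second Hoxa5 probe set went from 99.8 to 88.4, at -0.12. Both lay below 0, by different amounts. Hoxb5, a gene of airway branching, went from 98.3 to 50, a log2 ratio of -0.92, the lowest of the 19 genes above the median on both arrays under the reported setting and still short of 2-fold in all settings. Hoxb2, an anterior gene of hindbrain patterning, went from 101.9 to 64.2, at -0.61. Hoxa3, an anterior gene of thymus and pharyngeal development, went from 55.5 to 38.4, at -0.47.

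The remaining lung Hox genes were closer to 0 or to the background. Hoxb3 went from 63.8 to 50.7, at -0.27, and Hoxb4, known from blood stem cells, from 33.9 to 32.1, at -0.02. Hoxa4 went from 31.4 to 17.7, at least 1.24-fold lower, and Hoxb6 from 31 to 21.2, at least 1.23-fold lower. Hoxa2, Hoxa7, Hoxb1 and Hoxb7 of these clusters were below the median on both arrays. No HoxB gene was higher in the TDAG8 lungs under the reported setting, where 5 of 9 with a single-gene probe set were measured.

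The TALE partners differed little. All 5 measured Meis and Pbx genes of 6 had ratios below 0 in the probe set that stood for them, with a median of -0.24 and no 2-fold difference, except that Pbx3 lay above 0 in 1 alternative setting. Meis1, the Hox partner best known beside Hoxa9 in leukaemia, went from 112.2 to 73.2, at -0.56, and its second probe set was at -0.32. Meis2, a partner gene of limb and face development, had 3 measured probe sets between -0.32 and -0.13, and Meis3 went from 35.4 to 28.7, at -0.24. Pbx2 went from 222.9 to 202.5, at -0.08, and Pbx3 from 195.2 to 177.5, also at -0.08, with a second Pbx3 probe set at 0.07. Pbx4 was below the median on both arrays. No Meis or Pbx probe set was 2-fold different in either direction.

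Iroquois genes pattern tissues in groups of neighbouring genes, and 4 of the 6 were measured, with ratios below 0. Irx3 went from 433.8 to 229.7, a log2 ratio of -0.86 or 1.81-fold lower. Irx2 went from 190.3 to 106.3, at -0.78, Irx1 from 274.2 to 165.4, at -0.67, and Irx5 from 135.6 to 87.6, at -0.57. The 4, from both Irx clusters, had a median of -0.73, and none reached 2-fold. Irx4 and Irx6 were below the median on both arrays.

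Among the remaining families, Dlx2, a gene of forebrain and face development, went from 17.2 to 102 and was at least 4.04-fold higher. Its neighbour Dlx1 and the genes Dlx3, Dlx4, Dlx5 and Dlx6 were in the background on both arrays. Six4, a factor of muscle and sensory precursors, had 3 measured probe sets, which went from 92.1 to 130.3, from 44.9 to 85.3 and from 47.1 to 99.5. All 3 were higher, with log2 ratios of 0.56, 0.98 and 1.14, so that 1 of the 3 passed 2-fold and the probe set that stood for the gene did not. Six5 went from 32.7 to 23.7, at least 1.29-fold lower. Msx1, a gene of limb and tooth buds, read 24.6 and 26 beside the 2 medians and could not be told from background. Msx2, Msx3, Pitx1, Pitx3, Six2, Six3 and Six6 were below the median on both arrays.

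**Figure D3:**
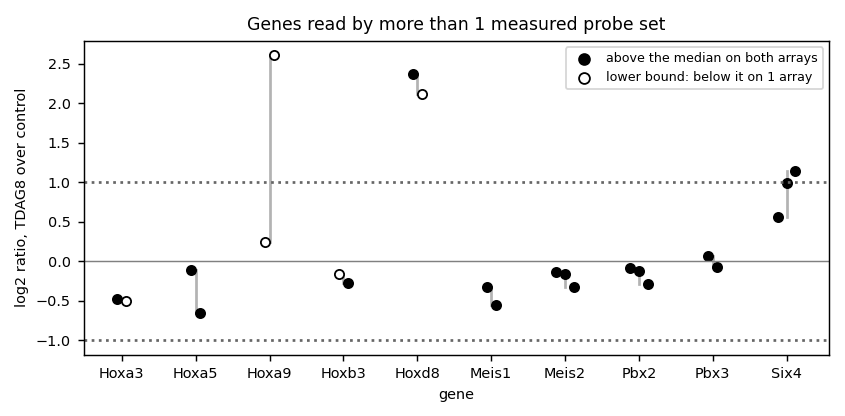
Log2 ratio of TDAG8 over vector control for each measured probe set of the 10 genes with more than 1, with open points for bounds, a line joining the probe sets of a gene and dotted lines at 2-fold. The probe sets of a gene lie on the same side of 0 except those of Pbx3, and those of Hoxa9 are farthest apart, at bounds of 2.61 and 0.24.

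Where a gene had several measured probe sets, 9 of 10 genes had them all on the same side of 0. The exception was Pbx3. Bounds, whose sign the floor largely fixed, were among the values of Hoxa9, Hoxd8, Hoxa3 and Hoxb3. Probe sets in the background on both arrays were not counted. The widest range was that of Hoxa9, whose second probe set went from 14.2 to 29.8 and gave a bound of 0.24 beside 2.61, both in the background in the control. Values next to the medians decided several bounds. In the control array Hoxb3 at 28.2 lay just above the median and Msx1 at 24.6 and Hoxd10 at 24 just below it, and in the TDAG8 array Six5 at 23.7 lay just below and Msx1 at 26 just above.

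**Figure D4:**
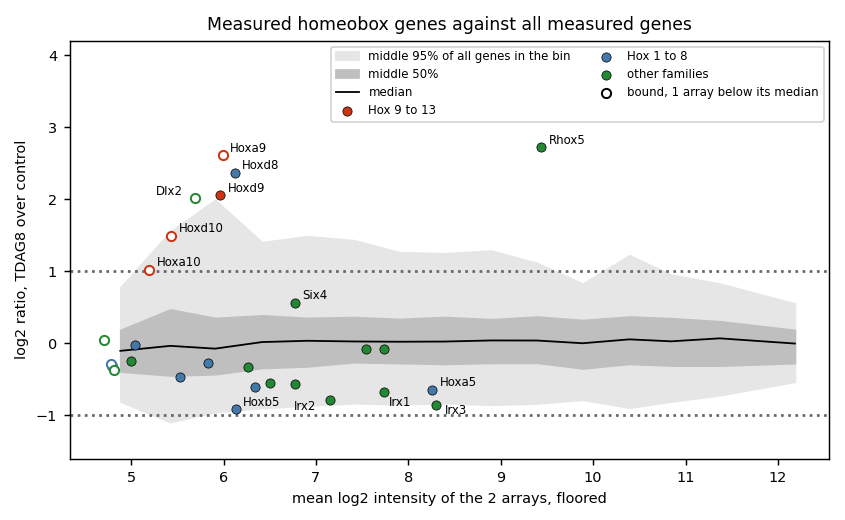
Log2 ratio of TDAG8 over vector control against the mean log2 intensity of both arrays (values below the median raised to it) for the 27 measured homeobox genes, over grey bands that hold the middle 50% and 95% of all measured genes at that level and dotted lines at 2-fold. Open points are bounds and have no place against the bands. Of the filled points Rhox5 and Hoxd8 lie above the outer band, Hoxd9 just above it, Irx3 just below it, and the other 15 inside it.

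Set against all measured genes of like level, bounds included, 3 of the 19 genes above the median on both arrays lay above the range that holds the middle 95%. These were Rhox5, Hoxd8 and, only just, Hoxd9, at 2.05 against an upper edge of 1.99. Irx3 lay just below that range, at -0.86 against a lower edge of -0.83. The other 15 were inside it, Hoxb5 at -0.92 against a lower edge of -0.95. The 8 genes known by a bound could not be placed against it.

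Genes that act upstream of or beside Hox genes were taken from lists chosen with earlier results of these arrays known. Among chromatin regulators of Hox genes, the trithorax and Polycomb groups and their partners, 26 of 30 were measured, 15 above 0 and 11 below, with a median of 0.06. At least 2-fold higher was 1 and lower 0. Over all measured genes 5.41% were higher and 1.19% lower, shares to set beside this list and those that follow. Ash2l, a core subunit of the methyltransferase complexes that mark active promoters, went from 212.7 to 419.9, 2.06-fold. The Polycomb gene Pcgf1 was at 0.79, Psip1, a chromatin partner of the Menin complex, at 0.74, and Phc2, the brightest of the list, at 0.47.

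In the retinoic acid pathway, which switches on Hox genes in the embryo, 13 of 19 genes were measured, 4 above 0 and 9 below, with a median of -0.16. Crabp1, a cellular carrier of retinoic acid, went from 25.1 to 136 and was at least 5.39-fold higher, the 1 gene of the list past 2-fold. Aldh1a1, a retinaldehyde dehydrogenase and the brightest of the list, went from 5091.1 to 3063.2, at -0.67, and the retinaldehyde reductase gene Dhrs3 was at -0.64. Among other TALE genes and partners of the Six4 family, 9 of 13 were measured, 5 above 0 and 4 below, with a median of 0.01. The TALE repressor Tgif1 went from 95.6 to 193, 2.10-fold higher, its relative Tgif2 was at 0.88, Pknox2, another TALE partner of Pbx, at -0.71, and the corepressor gene Tle3, the brightest, at 0.01.

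Of 33 other listed homeobox genes of lung and mesenchyme 15 were measured, 6 above 0 and 9 below, with a median of -0.18. At least 2-fold higher were 2 and lower 0. Prrx1, a homeobox gene of limb and embryonic mesenchyme, went from 159.2 to 480.2, 3.14-fold higher, and Shox2, another limb gene, from 5.6 to 54.2, at least 2.15-fold. Nkx2-1, the homeobox gene of lung epithelial identity, went from 69.5 to 39.8, at -0.75, and Hopx, of alveolar type 1 cells and the brightest of the list, was at -0.43.

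Markers of several cell types also differed between the arrays. Of 19 proliferation genes measured 18 were at least 2-fold higher. Their summed intensity over the 19 was 2899.4 in the control and 9538.9 in the TDAG8 lungs. Of 10 measured tumour-associated genes 8 were at least 2-fold higher, with sums of 1461.2 and 5948.3 over all 16 with a probe set. The other 6 were in the background on both arrays, and Igf2 was below 0, at -0.48. Twist1, Igf2bp3, Afp and the proliferation gene Kif20a were in the background in the control, which largely fixed their sign. All 9 measured smooth muscle, all 12 endothelial, all 8 alveolar type 1, all 8 alveolar type 2, all 7 club cell and all 8 ciliated cell genes had ratios below 0, with medians from -0.78 to -0.49. At least 2-fold lower were Myh11 of smooth muscle and Clec14a of endothelium, at -1.16 and -1.07. So were the ciliated cell genes Tekt2 and Dnah5, whose TDAG8 values were in the background. Of 14 measured lung fibroblast and mesenchyme genes 10 were below 0, with a median of -0.48 and summed intensities of 21210 and 17983.4. The transcription factor genes of lung mesenchyme among them, Tcf21, Tbx4, Foxf1 and Tbx5, were at -0.71, -0.71, -0.61 and -0.54. The 4 genes of the list above 0 were the matrix genes Lum at 1.14, its 1 member past 2-fold, Fn1 at 0.35, Dcn at 0.28 and Col3a1 at 0.23. Of 4 measured blood progenitor genes 4 were below 0, with a median of -0.76 and summed intensities of 1862.6 and 1256.8 over 9 genes. Myb, at -1.33, was the 1 past 2-fold. Of 9 measured monocyte and macrophage genes 8 were above 0, with a median of 1.07, and Msr1 among them was in the background in the control. Neutrophil and T cell genes had medians of 0.19 and 0.27, and B cell and mesothelial genes of -0.39 and -0.54. No gene of those lists passed 2-fold. No marker was listed at an intensity of 0. The part of these cell types in the ratios of the homeobox genes was not tested.

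**Figure D5:**
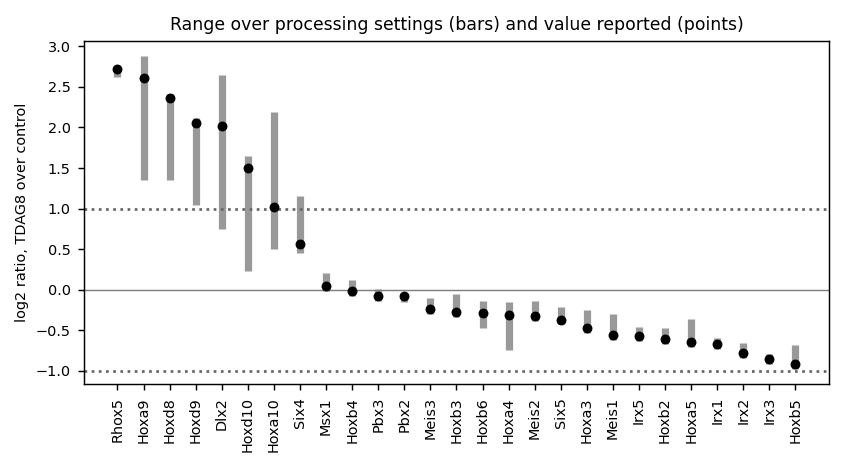
Log2 ratio of TDAG8 over vector control of the 27 measured homeobox genes as reported (points) and its lowest and highest value over the reported and 8 alternative settings (bars), with dotted lines at 2-fold. Rhox5, Hoxa9, Hoxd8 and Hoxd9 stay above 2-fold throughout, while the bars of Dlx2, Hoxd10, Hoxa10 and Six4 cross it.

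Rhox5, Hoxa9, Hoxd8 and Hoxd9 were at least 2-fold higher under the reported and all 8 alternative settings. Dlx2 and Hoxd10 were not when the floor was raised to the 65th percentile, where their bounds were 0.75 and 0.24, and Hoxd10 fell just short at 0.99 with an offset of the column median in place of the floor. Hoxa10 was at 0.50 when its 2 probe sets were averaged and at 0.96 without centring, and it was not measured under 2 settings. Six4 passed 2-fold, at 1.16, when probe sets with a letter before the _at ending of their ID were left out. No measured member was 2-fold lower under any setting.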

How the data were processed

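Whole-lung RNA of 2 groups was measured, 1 pool of 10 lungs and 1 array each. Per the labels' protocols, 2 µg of total RNA was primed from the poly(A) tail and turned into biotin-labelled cRNA by the Affymetrix procedure. The authors deposited intensity values on a linear scale with a trimmed mean of 100 in each column after leaving out 2% at each end. The sources used here do not name the software behind them, and no detection calls came with them. Of 45101 probe sets 64 controls were set aside, and 34945 had 1 gene symbol in the platform annotation, 932 several and 9160 none. By gene identifier, 34741 matched the RefSeq table of GRCm38.p6.

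Values below the 50th percentile of a column were raised to it. In log2 terms the column medians were -0.11 apart, and the median ratio of the 11044 genes measured on both was subtracted. No test was run, because each group had 1 array, and precision is limited by that number. The members and gene lists were chosen with earlier results of these data known. Named were all measured member genes, and of each list the 3 members with the largest differences and the brightest, with further marker genes and cluster neighbours chosen after their values were seen. Alternatives were no centring, quantile normalization, loess (span 0.3), a floor at the 30th or 65th percentile and an offset of the column median. The others were the mean over probe sets and only probe sets without a letter before the _at ending of their ID. Such a letter need not mark sequence shared with another gene. In addition, 3 probe sets with several symbols, a member's among them, were left out; all 3 were in the background. The steps, run in Python 3.11.15 with pandas 2.3.3 and statsmodels 0.14.6, were tested on simulated data. The simulated differences were placed in bright probe sets and their size was checked only above the floor on both arrays. The size of bounds was therefore not tested.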

Additional observations from a re-analysis of the deposited data

Results flagged for a closer look

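A probe set outside the members was set apart because it carried a signal above its level in the vector control. It is annotated to Hoxd3os1, a noncoding gene that lies in the HoxD cluster between Hoxd8 and Hoxd3, and it went from 21, in the background, to 79.9 in the TDAG8 lungs, at least 3.16-fold higher. A second Hoxd3os1 probe set was in the background on both arrays, at 9.4 and 10.3. Of the other noncoding genes named for these loci, Hoxb5os went from 36.4 to 20.7, at least 1.44-fold lower, and the probe sets of Hoxa11os were in the background. The cause was not tested.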

How the results depend on the processing

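The number of member genes at least 2-fold higher, 7 as reported, was 4 under a floor at the 65th percentile and between 6 and 9 under the other 7 alternatives, and the number lower was 0 under all 8. The median of the measured posterior Hox genes, 1.77 as reported, was 1.04 under that higher floor, 1.25 with the offset, 1.48 with the mean over probe sets, 2.07 without probe sets that share sequence, 2.05 for the 1 gene above the median on both arrays and 1.26 for groups 10 to 13. The median of groups 1 to 8, -0.31 as reported, was -0.63 under it, where fewer genes were measured. The other alternatives moved these medians and Rhox5 by less than the SD of 0.27 between probe sets of a gene. Of 195 recomputed values of 26 single genes 178 moved by less than that and 0 changed the sign of a 2-fold difference. Only Dlx2, Hoxa9, Hoxa10, Hoxd8, Hoxd9 and Hoxd10 among these genes had such a difference as reported. For Dlx2, Hoxa9, Hoxa10 and Hoxd10 a control value in the background largely fixed the sign. Short of 2-fold, Hoxb4, Msx1 and Pbx3 changed sign in some settings. Over all genes the 2-fold lower count, 142, was 31 with the offset and 345 under a floor at the 30th percentile. No paired analysis was possible because each group had 1 array. Dim control values limit 3 of the 4 measured posterior Hox genes to bounds.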
